A study of Mus musculus with 9 samples.

Results

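Gucy2d, Cnga3, Pde2a and Car2 are 4 known markers of necklace olfactory sensory neurons (OSNs), which signal through cyclic GMP and also carry MS4A proteins. All 4 were found by symbol among the 55291 genes of the table, and all 4 had enough counts to be tested, at least 10 summed over the 9 mice. The main olfactory epithelium of 9 C57BL/6 mice, aged 8 to 12 weeks, was dissected for RNA sequencing. There were 3 wild-type mice, described as littermate controls, 3 Ms4a cluster knockout mice and 3 Ms4a6c knockout mice. The cluster knockout was made with CRISPR/Cas9 and the Ms4a6c knockout by homologous recombination. No tissue-restricted promoter or Cre is described for either, and both were compared with the same 3 wild-type mice. No odor treatment is given in the labels, nor the sex of the mice. Xist, the RNA that coats the inactive X chromosome of female cells, was at 0 to 2.61 CPM (the count scaled to the mouse's library size after TMM normalization, per 1000000) in wild-type mouse 1, cluster knockout mouse 3 and Ms4a6c knockout mice 2 and 3, and at 247 to 366 CPM in the other 5, so the sexes were mixed and not balanced between genotypes.

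Most OSNs signal through cyclic AMP, made by Adcy3 and read by a channel built on Cnga2. Necklace OSNs, named for the ring of glomeruli to which they project around the caudal olfactory bulb, instead use cyclic GMP. In them Gucy2d, the receptor guanylyl cyclase GC-D, makes cyclic GMP, the channel subunit Cnga3 opens upon binding it, and the phosphodiesterase Pde2a breaks it down. Car2, carbonic anhydrase II, turns carbon dioxide into bicarbonate, which stimulates GC-D. These neurons are rare, and the libraries are of whole epithelium, so fewer necklace OSNs and less RNA per necklace OSN cannot be told apart here. Cnga3, Pde2a and Car2 are also made by other cells of the body, and Car2 is abundant in red blood cells and osteoclasts.

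The expected counts summed to between 13954591 and 21987174 per mouse. Ms4a6c had 53.9 to 90.3 expected counts in wild-type mice, 0 in each cluster knockout mouse and 0 to 2.35 in Ms4a6c knockout mice, and the 21 genes whose symbol begins with Ms4a summed to 0 in every cluster knockout mouse, so the targeted genes followed the labels. Omp, the marker of mature OSNs, averaged 4848 CPM. In 2 libraries, wild-type mouse 1 and cluster knockout mouse 2, 8 genes of nasal glands took 19.4% and 19.1% of all counts, against 0.396% to 3.79% in the other 7, and 10 genes of canonical mature OSNs took 0.874% and 0.798%, against 1.43% to 1.61%. Cluster knockout mouse 2 also had 112 CPM summed over 6 olfactory bulb genes, against 19.3 to 38.3 CPM in the other 8 mice. These 2 libraries are called gland-rich below. Gucy2g and Vmn2r83, markers of the Grueneberg ganglion, a nasal organ that also uses cyclic GMP and Cnga3, had at most 3 counts in every mouse.

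The 4 members differed widely in level. Divided by the length of the longest transcript, Car2 averaged 44.5 CPM per kb over the 9 mice, Pde2a 3.48, Gucy2d 0.622 and Cnga3 0.0837. On this scale Car2 stood 71.5-fold above Gucy2d, Pde2a 5.59-fold above it, and Gucy2d 7.44-fold above Cnga3. Car2 lay at the 94.7th percentile of 23203 tested genes with a known length, Pde2a at the 54.5th, Gucy2d at the 31.1st and Cnga3 at the 8.39th. The canonical channel subunit Cnga2 averaged 298 CPM per kb, 3563-fold above Cnga3, and Pde1c, the phosphodiesterase of canonical OSN cilia, averaged 48.7 CPM per kb, also above Pde2a.

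Gucy2d lies on chromosome 7 at chr7:98440416-98477479 (GRCm38, plus strand), and its longest transcript has 19 exons. In wild-type mice 1, 2 and 3 it was at 2.63, 2.39 and 1.93 CPM. In cluster knockout mice it was at 2.45, 1.69 and 3.21 CPM, and in Ms4a6c knockout mice at 1.64, 1.74 and 2.68 CPM. Each genotype overlapped both others, and the highest and the lowest of the 9 values, 1.96-fold apart, were both from knockout mice. The means of Gucy2d were 2.32 ± 0.353 CPM in wild type, 2.45 ± 0.757 in the cluster knockout and 2.02 ± 0.572 in the Ms4a6c knockout (SD, n = 3 each). These values rest on 17 to 64 counts per mouse. The coefficient of variation over the 9 mice was 23.9%, where counting error alone gives 15.9%. Gucy2d was 1.08-fold of wild type in cluster knockout mice, at 0.11 on the log2 scale with a 95% interval of -0.53 to 0.75 (adjusted p = 1.0 by the quasi-likelihood F-test of edgeR, Benjamini-Hochberg over 23225 genes). In Ms4a6c knockout mice the log2 fold change from wild type was -0.21, with an interval of -0.85 to 0.44 (edgeR adjusted p = 0.845). Between the knockouts it was 0.31 higher on the log2 scale in the cluster knockout, with an interval of -0.33 to 0.96 (edgeR adjusted p = 0.777). The cluster knockout mean was the highest and the Ms4a6c knockout mean the lowest, but no neighbors in that order differed beyond their spread. The intervals leave room for a change of up to 1.68-fold in the cluster knockout and 1.36-fold in the Ms4a6c knockout upward, and for 0.693-fold and 0.555-fold of wild type downward.

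**Figure D1:**
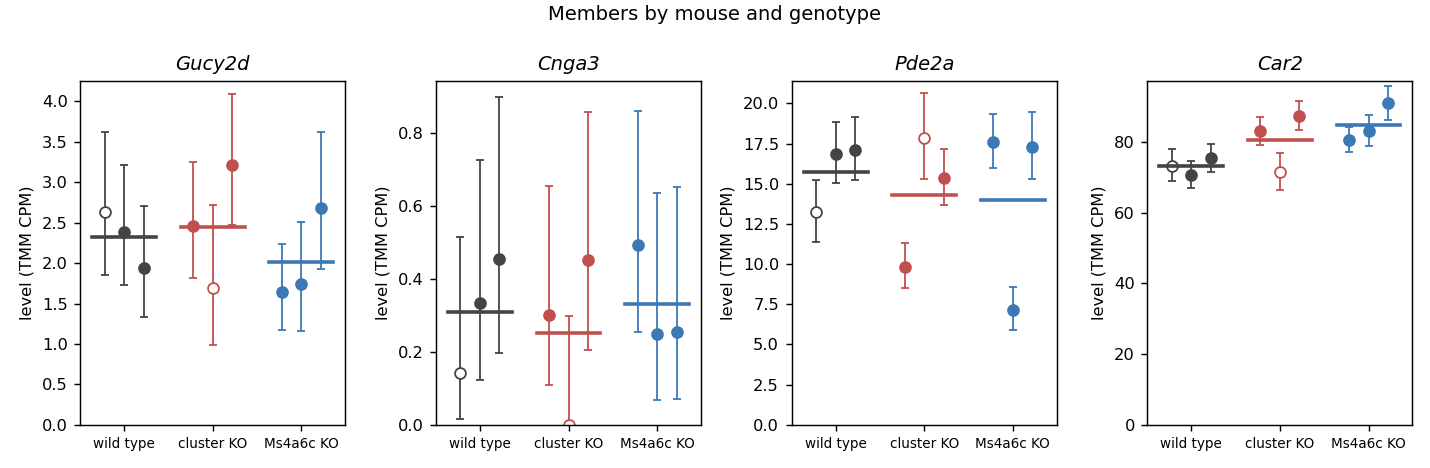
Level of each member in each mouse, in TMM-scaled CPM, by genotype. Points are mice, vertical lines are 95% Poisson intervals of counting error (for the Cnga3 value of 0, the line ends at the limit of 3 counts), horizontal lines are genotype means over 3 mice, and open points are the gland-rich libraries. Gucy2d and Cnga3 intervals overlap among most mice, Pde2a has single low mice at 9.82 and 7.13 CPM, and the Ms4a6c knockout Car2 values (80.6 to 90.9 CPM) lie above the wild-type values (70.7 to 75.4 CPM).

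Cnga3, better known as the channel subunit of cone photoreceptors, lies at chr1:37214434-37263384 (GRCm38, plus strand), and its longest transcript has 6 exons. It had 2, 6 and 8 counts in wild-type mice 1, 2 and 3. It had 6, 0 and 9 counts in cluster knockout mice and 12, 4 and 4 in Ms4a6c knockout mice. All 3 genotypes overlapped. The 2 lowest mice were the gland-rich ones, and all of the other 7 were above the limit of 3 counts. The 0 in cluster knockout mouse 2 allows up to 3 counts, or 0.299 CPM at that library's size, which is within the range of the other mice (0.142 to 0.492 CPM). Genotype means were 0.31 ± 0.158 CPM in wild type, 0.251 ± 0.23 in the cluster knockout and 0.332 ± 0.139 in the Ms4a6c knockout (SD, n = 3 each). The log2 fold change from wild type was -0.18 in the cluster knockout, with a 95% interval of -1.88 to 1.53 (edgeR adjusted p = 1.0). For the Ms4a6c knockout it was 0.11, with an interval of -1.53 to 1.75 (edgeR adjusted p = 0.979). The intervals run from 0.272-fold to 2.89-fold of wild type in the cluster knockout and from 0.346-fold to 3.36-fold in the Ms4a6c knockout. Differences in Cnga3 within these bounds remain possible.

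Pde2a, a phosphodiesterase that cyclic GMP itself stimulates, lies at chr7:101421691-101512827 (GRCm38, plus strand), 2.94 Mb beyond Gucy2d. Its longest transcript has 31 exons. It shares exons with Gm45837, which starts upstream of it at position 101410886 on the same strand and ends at 101512819. The annotation tags the Gm45837 transcript as a readthrough transcript. Of its 32 exons only the first, of 184 bases, is not shared, and 95.6% of its 31-base words also occur in a transcript of Pde2a. The junction between its first and second exons and that of the longest Pde2a transcript show where the annotated transcripts part. Each line gives 60 bases of the first exon in lower case, which differ between the transcripts, and 60 bases of the shared second exon in capitals, 5′ to 3′ on the plus strand. All of these bases are annotated as coding.
Gm45837, chr7:101411010-101411069 joined to chr7:101451402-101451461: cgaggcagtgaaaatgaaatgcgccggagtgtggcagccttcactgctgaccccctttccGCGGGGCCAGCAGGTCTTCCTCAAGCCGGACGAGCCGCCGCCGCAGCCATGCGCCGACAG
Pde2a, chr7:101421936-101421995 joined to chr7:101451402-101451461: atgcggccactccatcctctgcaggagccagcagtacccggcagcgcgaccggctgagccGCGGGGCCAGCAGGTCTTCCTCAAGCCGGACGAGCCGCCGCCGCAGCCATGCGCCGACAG
A read pair that lies in the capital part or beyond it fits both genes, and RSEM then divides it between them by estimate. Counts assigned to either gene alone are therefore uncertain.

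Pde2a was at 13.2, 16.9 and 17.1 CPM in wild-type mice. It was at 9.82, 17.8 and 15.3 CPM in cluster knockout mice and at 17.6, 7.13 and 17.3 CPM in Ms4a6c knockout mice. A single mouse in each knockout was below every wild-type mouse, and the others were within or just above the wild-type range. Both of these low mice had counts under Gm45837, 181 expected counts in cluster knockout mouse 1 and 158 in Ms4a6c knockout mouse 2. Gm45837 also held 41.0 expected counts in cluster knockout mouse 3 and 0 in the other 6 mice, which included all 3 wild-type mice. Summed over both genes, the level was 18.9, 17.8 and 17.4 CPM in cluster knockout mice and 17.6, 17.0 and 17.3 CPM in Ms4a6c knockout mice. The sum in wild-type mice was that of Pde2a alone. Within genotypes the coefficient of variation was 29.7% for Pde2a and 7.90% for the sum, and in Ms4a6c knockout mice it was 42.5% and 1.81%. Among 3038 tested genes within 1.5-fold of the level of Pde2a, 95.7% had a lower coefficient than Pde2a, against 35.7% of 3201 genes around the level of the sum. Whether the counts under Gm45837 come from readthrough RNA or from the division of shared reads was not tested.

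**Figure D2:**
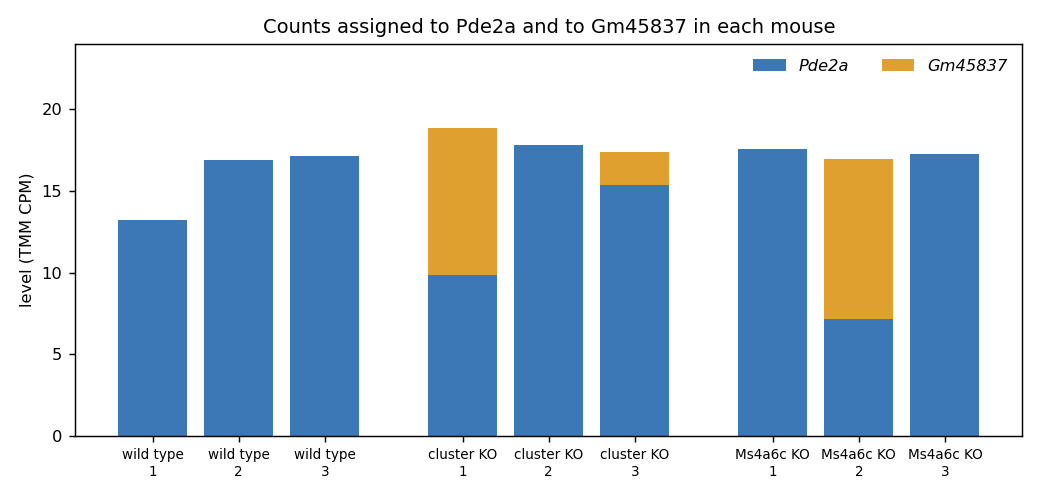
Level assigned to Pde2a (blue) and to the overlapping gene Gm45837 (orange), stacked for each of the 9 mice, in TMM-scaled CPM. The 3 mice with Gm45837 counts reach 18.9, 17.4 and 17.0 CPM in total, beside 13.2 to 17.8 CPM in the 6 mice without them.

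For Pde2a alone, the log2 fold change from wild type was -0.15 in the cluster knockout, with a 95% interval of -0.85 to 0.55 (edgeR adjusted p = 1.0). It was -0.17 in the Ms4a6c knockout, with an interval of -0.86 to 0.53 (edgeR adjusted p = 0.896). With the counts of both genes summed, an alternative chosen after the data were seen, both directions turned. The sum was 0.19 higher in the cluster knockout, with an interval of -0.04 to 0.43 (edgeR adjusted p = 0.968), and 0.13 higher in the Ms4a6c knockout, with an interval of -0.10 to 0.36 (edgeR adjusted p = 0.701). All 3 cluster knockout sums lay above all 3 wild-type sums, as did 4.71% of all genes tested. The lowest wild-type value, 13.2 CPM, was from the gland-rich library. Relative to canonical OSN genes, the sum was 10.6, 11.8 and 12.4 per 10000 of their counts in wild-type mice and 13.2, 15.7 and 13.3 in cluster knockout mice. With plain library sizes the sums overlapped, at 9.28 to 19.1 CPM in wild-type mice and 12.6 to 21.2 CPM in cluster knockout mice.

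Car2 lies at chr3:14886273-14900770 (GRCm38, plus strand), and its longest transcript has 7 exons. It was the member with the most counts, 718 to 1966 per mouse. In wild-type mice it was at 73.3, 70.7 and 75.4 CPM. In cluster knockout mice it was at 83.1, 71.6 and 87.4 CPM, and in Ms4a6c knockout mice at 80.6, 83.2 and 90.9 CPM. Every Ms4a6c knockout mouse was above every wild-type mouse, while the gland-rich cluster knockout mouse fell within the wild-type range. The 3 highest values, 90.9, 87.4 and 83.2 CPM, were from the 3 knockout mice low in Xist. Cluster knockout mouse 1, high in Xist, was almost level with the lowest of them at 83.1 CPM. Wild-type mouse 1, also low in Xist, was within the range of the other wild-type mice at 73.3 CPM. With Xist as a covariate the log2 fold change in the Ms4a6c knockout was 0.19 (edgeR adjusted p = 0.483). The means of Car2 were 73.1 ± 2.33 CPM in wild type, 80.7 ± 8.16 in the cluster knockout and 84.9 ± 5.37 in the Ms4a6c knockout (SD, n = 3 each). Separation of every mouse in this direction was seen in 9.71% of all genes tested in that comparison, so 1 of 4 members is not set apart by it. Between the knockouts, no member was higher in every cluster knockout mouse than in every Ms4a6c knockout mouse, where 7.86% of all genes were. Car2 in Ms4a6c knockout mice was 1.16-fold of wild type, or 0.21 on the log2 scale with a standard error of 0.079 and a 95% interval of 0.04 to 0.39 (edgeR adjusted p = 0.363). This did not pass the adjusted test. In cluster knockout mice the log2 fold change was 0.14, with an interval of -0.03 to 0.32 (edgeR adjusted p = 0.970). Between the knockouts it was -0.07 in the cluster knockout relative to the Ms4a6c knockout, with an interval of -0.25 to 0.10 (edgeR adjusted p = 0.824).

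Car2 relative to canonical OSN genes no longer separated Ms4a6c knockout from wild-type mice. Per 10000 counts of those genes it was at 58.8, 49.4 and 54.5 in wild-type mice. It was at 58.2, 63.1 and 67.0 in cluster knockout mice and at 59.2, 58.5 and 65.5 in Ms4a6c knockout mice. Wild-type mouse 1, the gland-rich one, then overlapped both knockouts, and the other 2 wild-type mice stayed below them. Scaled this way the log2 fold change in the Ms4a6c knockout was 0.17 (edgeR adjusted p = 0.792). In the cluster knockout it was 0.21, larger than the 0.14 with TMM scaling (edgeR unadjusted p = 0.04999, adjusted p = 0.998). Without the gland-rich libraries and with TMM scaling the log2 fold change was 0.22 in the Ms4a6c knockout (edgeR adjusted p = 0.150) and 0.22 in the cluster knockout (edgeR adjusted p = 0.458). The summed levels of markers of other cell types are given beside these values, with no test. The summed level of 5 sustentacular genes was 7662 to 8578 CPM in wild-type and 9554 to 10290 CPM in Ms4a6c knockout mice, and that of 7 erythroid genes was 673 to 922 CPM in wild type and 821 to 2379 CPM in the Ms4a6c knockout. The 5 osteoclast genes summed to 358 to 639 CPM in wild type and to 268 to 397 CPM in the Ms4a6c knockout, and 5 macrophage genes to 82.5 to 101 CPM and 72.0 to 76.1 CPM. The sustentacular and macrophage sums did not overlap between these genotypes, and the erythroid and osteoclast sums did. The sums of all other marker lists also overlapped between them. Of all single genes tested, 9.71% were higher in every Ms4a6c knockout mouse than in every wild-type mouse. The share that were lower was not computed. After TMM scaling, Cyp2g1, Cyp1a2 and Sult1c1 of the sustentacular list were higher in every Ms4a6c knockout mouse. Cbr2 of that list overlapped, and Ermn was lower in every Ms4a6c knockout mouse. Of the macrophage list, Cd68 and C1qa overlapped, and Csf1r, Adgre1 and Cx3cr1 were lower in every Ms4a6c knockout mouse. All genes of the sustentacular, erythroid, osteoclast and macrophage lists were above 3 counts in at least 1 mouse. The part of these 4 lists in the level of Car2 was not tested.

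In all, 0 of the 4 members passed an adjusted p of 0.05 in any comparison. Over all genes the same test called 0.0258% in the cluster knockout against wild type (6 of 23225), 0.435% in the Ms4a6c knockout against wild type (101) and 0.443% between the knockouts (103). DESeq2 also called 0 members. Counts over all genes with DESeq2, and in the Ms4a6c knockout without the gland-rich libraries, are in the closing section. At an unadjusted p under 0.05, edgeR gave 0 members in the cluster knockout, 1 in the Ms4a6c knockout, which was Car2 (unadjusted p = 0.0209 from edgeR's test), and 0 between the knockouts. The shares of all genes at that cutoff were 4.93%, 10.5% and 9.38%, in the same order. Without the gland-rich libraries the count of members called was again 0, and Car2 had an unadjusted p of 0.0121 in the cluster knockout and 0.00853 in the Ms4a6c knockout against wild type (edgeR). Gucy2d was then at a log2 fold change from wild type of 0.39 in the cluster knockout and -0.11 in the Ms4a6c knockout (edgeR adjusted p = 0.762 and 0.901). Cnga3 was at -0.07 and -0.19 (edgeR adjusted p = 0.982 and 0.913), and Pde2a at -0.43 and -0.27 (edgeR adjusted p = 0.777 and 0.759). These Pde2a values leave out Gm45837, under which both remaining cluster knockout mice, 1 and 3, held counts. The sum of both genes was not fitted without the gland-rich libraries. The intervals of the fit to all 9 mice differ in width between the genes. For Car2 they are within 1.31-fold of no change in every comparison, for Gucy2d within 1.94-fold upward, and for Cnga3 they reach 2.61-fold or more upward in every comparison.

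**Figure D3:**
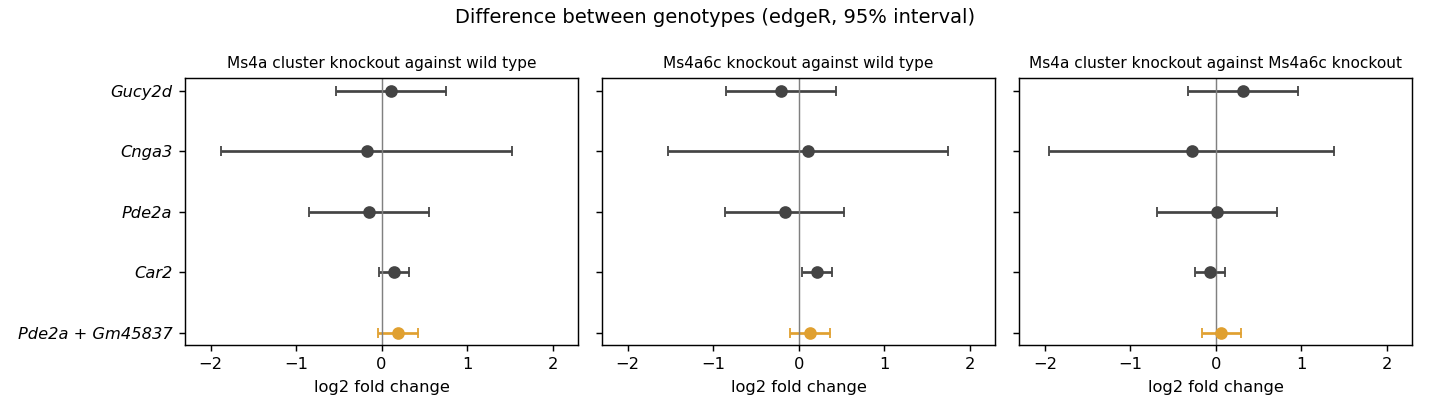
Log2 fold change of each member, and of Pde2a summed with Gm45837 (orange), for the 3 comparisons between genotypes. Points are edgeR estimates from 3 mice per genotype and bars their 95% intervals. Car2 and the Pde2a sum have the narrowest intervals, Cnga3 the widest (-1.88 to 1.53 in the cluster knockout against wild type), and the one interval of a member that leaves out 0 is that of Car2 in Ms4a6c knockout mice (0.04 to 0.39).

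The other genes of cyclic GMP signaling and the carbonic anhydrases were described from a list of 56 genes, of which 51 were tested. None of the 51 passed an adjusted p of 0.05 in any of the 3 comparisons with edgeR, where 2, 7 and 7 had an unadjusted p under 0.05 (3.92%, 13.7% and 13.7%, against 4.93%, 10.5% and 9.38% of all genes). Their median log2 fold changes were 0.08, 0.07 and 0.04, against 0.00722, -0.00164 and 0.00700 over all genes. DESeq2 called 1 gene in each of the comparisons that include the Ms4a6c knockout, Car4 and Pde1c, both described below. How many of all genes DESeq2 called in these comparisons is given in the closing section.

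Among the membrane guanylyl cyclases, Npr2, the receptor of C-type natriuretic peptide, was the highest at 3.38 CPM per kb, 5.43-fold above Gucy2d. Its log2 fold change from wild type was 0.10 in the cluster knockout and -0.11 in the Ms4a6c knockout. Gucy2c and Npr1 also averaged above Gucy2d, Gucy2c by 2.54-fold. Gucy2c had 317 and 184 counts in the gland-rich libraries, wild-type mouse 1 and cluster knockout mouse 2, and 24 to 58 in the other mice. Gucy2d had 28 to 64 counts in those other mice, and Gucy2c was below it in most of them. The higher mean of Gucy2c thus rests on the gland-rich libraries. Gucy2e and Gucy2f, the cyclases of photoreceptors, and Gucy2g were at 0.0247 to 0.0742 CPM per kb, all below Gucy2d. Of the soluble cyclase subunits, which nitric oxide activates, Gucy1a1 was the highest at 1.31 CPM per kb. Nos1, the neuronal nitric oxide synthase, was the highest of its role at 0.568 CPM per kb. Guca2a and Guca2b, the peptides guanylin and uroguanylin to which GC-D responds, were listed at 0 in all 9 mice, and Nppc, the ligand of Npr2, led the ligands at 1.97 CPM per kb. Guca1b, a calcium-binding activator of photoreceptor cyclases, led its role at 0.617 CPM per kb, close to the level of Gucy2d.

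Downstream of cyclic GMP, Pde1c was the highest of the 14 other phosphodiesterases listed, and Prkg1, a cyclic GMP-dependent kinase, led its role at 1.26 CPM per kb. Pde1c was 0.26 lower on the log2 scale in the cluster knockout than in the Ms4a6c knockout, which did not pass with edgeR (adjusted p = 0.298) and passed with DESeq2 (adjusted p = 0.0222). Cnga2, Cnga4 and Cngb1, the subunits of the canonical OSN channel, were at 298, 152 and 70.3 CPM per kb. Cngb3, the partner of Cnga3 in cones, was at 0.128 CPM per kb with 4 to 21 counts per mouse, near the level of Cnga3. Of the carbonic anhydrases none came near Car2, with Car4, a membrane-anchored form, next at 9.40 CPM per kb. Car4 was 0.61 higher on the log2 scale in Ms4a6c knockout than in wild-type mice, which did not pass with edgeR (adjusted p = 0.152) and passed with DESeq2 (adjusted p = 0.0258). Without the gland-rich libraries, edgeR called Car4 (log2 fold change 0.63, adjusted p = 0.0355) and Car3 (-1.19, adjusted p = 0.0232) in that comparison. How many of all genes were called in that fit is given in the closing section. Car3 was named after its values were seen.

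**Figure D4:**
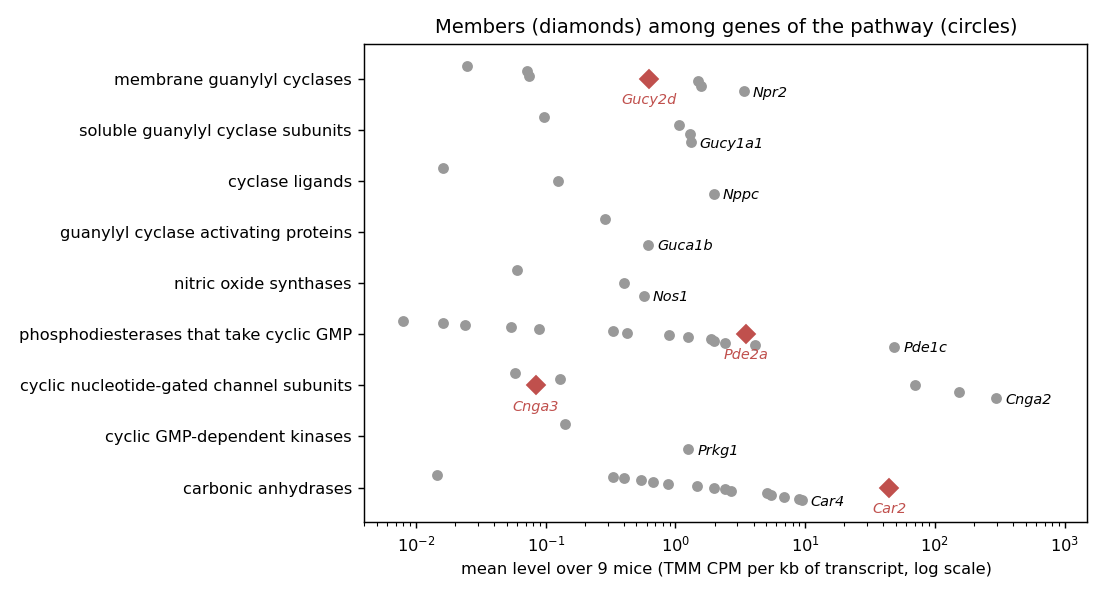
Mean level over the 9 mice, in TMM-scaled CPM per kb of the longest transcript (log axis), of the members (diamonds) and of the other listed genes (circles) by role. Genes at 0 are not drawn, and the highest other gene of each role is named. Car2 (44.5) is the highest carbonic anhydrase, while Cnga3 (0.0837) lies far below the canonical channel subunits such as Cnga2 (298).

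The members were then compared with one another over the 9 mice, to ask whether they rose and fell together. Of the 6 pairs, none passed the test adjusted over the pairs. On log2(CPM + 0.5), Pearson's r was 0.387 for Cnga3 and Car2 (Spearman's rho 0.150), 0.367 for Gucy2d and Car2 (rho 0.450), 0.172 for Gucy2d and Cnga3 (rho -0.0667), 0.0732 for Cnga3 and Pde2a (rho 0.150), 0.0713 for Gucy2d and Pde2a (rho -0.367) and -0.256 for Pde2a and Car2 (rho -0.250). The exact two-sided permutation p, adjusted over the 6 pairs, was 0.853 for every r and between 0.850 and 0.880 for every rho. With the genotype means removed, r was 0.825 for Gucy2d and Car2 (rho 0.783) and 0.558 for Cnga3 and Car2 (rho 0.433). For Gucy2d and Car2 the exact permutation p within genotypes was 0.0648, or 0.389 adjusted over the 6 pairs, and for Cnga3 and Car2 it was 0.306, or 0.861 adjusted. Without the 2 mice farthest from the median of the first gene and with the genotype means kept, r ranged from -0.276 for Cnga3 and Car2 to 0.588 for Cnga3 and Pde2a. When CPM was taken from plain library sizes instead, the r of Cnga3 and Car2 was 0.812 and that of Gucy2d and Car2 0.732 (exact permutation p = 0.0184 and 0.0201, adjusted p = 0.0603 for both). On that scale Car2 was at 51.4 and 50.4 CPM in the gland-rich libraries and at 77.7 to 102 CPM in the other 7. Without those libraries and with TMM scaling, r was -0.276 for Cnga3 and Car2 and 0.383 for Gucy2d and Car2.

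As a description over the same 9 mice, the genes most like each member were sought among those averaging at least 1 CPM, 16538 genes or 1 more. Most like Gucy2d were Sufu (r = 0.972), Arpc3, Gm6682, Themis2 and Adrm1. Most like Cnga3 were Dlgap3 (r = 0.977), Kif1a, Bsn, Rab11fip4 and Dclk2, each at r of 0.964 or more. Most like Pde2a were Pusl1 (r = 0.910), Kpna4, Cip2a, Vldlr and Olfr75-ps1, and most like Car2 were Mbd1 (r = 0.973), Sppl2b, Ank1, Kctd15 and Slc4a11. The Pde2a ranking used counts assigned to Pde2a alone. Its lowest mice, at 9.82 and 7.13 CPM, held counts under Gm45837, and the sum of both genes was not ranked. The points share the libraries' depth and makeup, and Cnga3 in particular was lowest in the 2 gland-rich libraries, as was Dlgap3. Over the 7 other libraries the r of Cnga3 with these 5 genes was 0.875 to 0.897, and that of the genes named for the other members was 0.863 or more. The genes were picked for the highest r over 9 mice that include these 7. A high r is therefore built into the choice, and the values over 7 mice are no separate check.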

How the data were processed

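Total RNA of the main olfactory epithelium was made into directional poly-A libraries. The authors aligned the reads with STAR 2.6.1 within DolphinNext, quantified GENCODE M25 genes (mm10) with RSEM 1.3.1, and deposited expected counts with no normalization. RSEM divides reads that fit several transcripts, which matters for Pde2a.

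Genotypes and mouse numbers came from the sample labels. The expected counts were rounded, genes with at least 10 counts over the 9 mice (23225) were TMM-scaled, and 1 quasi-likelihood model of the 3 genotypes was fitted (edgeR 4.0.16, R 4.3.3). P-values were adjusted by Benjamini-Hochberg. A standard error is the log2 change over the square root of F. The steps were tested on simulated counts. DESeq2 1.42.0 was an alternative; other alternatives are given in the closing section. Correlations used exact permutation tests in scipy 1.17.1 (Python 3.11). Figures were drawn with matplotlib 3.10.9. Gene coordinates, lengths and the printed sequences came from GENCODE M21 (GRCm38), to which 99.6% of genes matched by transcript. Poisson intervals and the limit of 3 counts cover counting error only, since reads carry no molecular identifiers.

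The members and all gene lists were chosen with earlier results of these data known. The genes named were the members, the targeted genes, the listed gene with the highest level per kb in each role, any listed gene with an adjusted p under 0.05, and the 5 genes most correlated with each member. Genes named otherwise were chosen after their values were seen.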

Additional observations from a re-analysis of the deposited data

How the results depend on the processing

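Each of the 12 member differences was refitted under up to 13 other settings and without each mouse in turn, 252 values in all. No member passed an adjusted p of 0.05 under any of them (lowest 0.150, Car2 in Ms4a6c knockout against wild type without the gland-rich libraries), 224 kept their direction and 28 turned. DESeq2 gave no adjusted p for Cnga3 in the Ms4a6c knockout, and Cnga3 was not tested under edgeR's default filter. The depth limits Cnga3 most, at 0 to 12 counts per mouse.

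With the plain library size, Gucy2d in Ms4a6c knockout against wild type turned to 0.00905 and Pde2a between the knockouts to -0.20. With both Pde2a and Gm45837 summed, Pde2a turned to 0.19 (cluster knockout) and 0.13 (Ms4a6c knockout). With canonical OSN genes as a covariate, Cnga3 turned to 0.10 in the cluster knockout and to 0.0857 between the knockouts, and Pde2a between the knockouts to -0.19. With nasal gland genes as a covariate, Cnga3 in the Ms4a6c knockout turned to -0.0751. With Xist as a covariate, Pde2a between the knockouts turned to -0.0433. Scaled to canonical OSN genes, Car2 between the knockouts turned to 0.0402. Without the gland-rich libraries, Cnga3 turned to -0.19 in the Ms4a6c knockout and 0.13 between the knockouts, Pde2a between the knockouts to -0.17 and Car2 to 0.00366. The Car2 mean of Ms4a6c knockout mice moved from 84.9 to 93.6 CPM with the plain library size.

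Leaving out each mouse in turn, the log2 fold change in the cluster knockout against wild type ranged from -0.13 to 0.29 for Gucy2d, -0.77 to 0.24 for Cnga3, -0.33 to 0.0676 for Pde2a and 0.08 to 0.22 for Car2. In the Ms4a6c knockout it ranged from -0.45 to -0.07 for Gucy2d, -0.32 to 0.47 for Cnga3, -0.37 to 0.14 for Pde2a and 0.16 to 0.25 for Car2. Between the knockouts it ranged from 0.07 to 0.56, -0.88 to 0.14, -0.29 to 0.23 and -0.13 to 0.00555. In fits that leave an arm with 2 mice, all genotypes share 1 estimate of the spread.

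The count of all genes called in the cluster knockout against wild type (6) became 18 with DESeq2 and 10 with canonical OSN genes as a covariate, and 3 to 7 without a mouse. In the Ms4a6c knockout (101) it became 62 scaled to canonical OSN genes, 182 with no filter, 345 with DESeq2, 161 and 186 with gland and OSN genes as covariates, 350 without the gland-rich libraries, and 59 to 159 without a mouse. Between the knockouts (103) it became 58 with the plain library size, 155 with no filter, 271 with DESeq2, and 66 to 121 without a mouse. Listed cyclic GMP and carbonic anhydrase genes went from 0 called to 1 with DESeq2 in each comparison with the Ms4a6c knockout, to 2 without the gland-rich libraries, and to 0 to 1 without a mouse (Car3 without wild-type mouse 1, Car4 without cluster knockout mouse 2) in the Ms4a6c knockout against wild type.

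Replicate numbers are shared between genotypes in the labels, but same-numbered mice did not deviate together (r from -0.58 to 0.115). The gland-rich libraries, wild-type mouse 1 and cluster knockout mouse 2, deviated together at r = 0.52. Differences in makeup of this size can hide a weaker pairing, so whether the numbers mark one cannot be told from this check. With the replicate block, 2, 71 and 75 genes were called in place of 6, 101 and 103, and no member's call changed.

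The p of a correlation adjusted over the pairs stayed above 0.05 in all 99 alternatives (lowest 0.0603, exact permutation), of which 16 turned. Unadjusted, it was 0.0184 for Cnga3 and Car2 and 0.0201 for Gucy2d and Car2 with the plain library size. Gucy2d and Cnga3 turned to -0.0095 scaled to canonical OSN genes and -0.108 without the gland-rich libraries. Gucy2d and Pde2a turned to -0.236 for the Pde2a sum. Cnga3 and Pde2a turned to -0.0224 with a pseudocount of 0.1 and -0.0648 scaled to OSN genes. Cnga3 and Car2 turned to -0.174 scaled to OSN genes and -0.276 without the gland-rich libraries. Pde2a and Car2 turned to 0.384 with the plain library size, 0.350 for the sum, 0.149 scaled to OSN genes and 0.0409 when so scaled without the gland-rich libraries. Without a mouse, r ranged from -0.244 to 0.443, -0.402 to 0.221, 0.171 to 0.501, -0.0368 to 0.462, 0.105 to 0.513 and -0.490 to -0.160 for Gucy2d with Cnga3, Pde2a and Car2, Cnga3 with Pde2a and Car2, and Pde2a with Car2. The cause of these turns was not tested.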
